A study of Mus musculus with 8 samples.

Results

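Of the 32285 genes counted, 10 listed as induced by low oxygen were followed in cultured mouse bone marrow progenitors: Bnip3, Ankrd37, Egln3, Ero1l, Selenbp1, Slc2a3, Fam162a, Ndrg1, Vegfa and Pdk1. The list was drawn up with earlier results of these data in view, so the values below describe the 10 genes and none of them is a test. Whole bone marrow had been cultured for 1 week over AFT024, a line of mouse embryonic liver fibroblasts irradiated beforehand, in a medium with hydrocortisone, and cells negative for lineage markers were then sorted. One group received 35 µM deoxycholic acid (DCA), a secondary bile acid formed by gut bacteria, and the other, the media Control, received none; the sources used here name no mouse strain or age. GEO's labels list 4 samples per group, but a cell's name carries only its group, so DCA and Control are 1 library each, no test between them was possible, and every interval below covers counting error only.

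When oxygen is short, prolyl hydroxylases no longer mark the hypoxia-inducible factor subunit HIF-1α for destruction, and the factor binds a short DNA core, the hypoxia response element, near its target genes. Its targets move glucose into the cell, speed glycolysis, limit the use of pyruvate in the mitochondrion and clear mitochondria. Bone marrow is a low-oxygen tissue, and neutrophils and their precursors depend largely on glycolysis. Apart from Selenbp1, whose place in it is less settled, the 10 genes are known targets of this pathway. The comparison asks how far the pathway's RNA output differed between marrow cells grown with and without the bile acid.

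The DCA library held 8520 barcodes and 131341422 UMIs (counted molecules), and the Control library 9346 barcodes and 183462851 UMIs. After filters, 7755 DCA cells with a median of 14424 UMIs and 8495 Control cells with a median of 18831 UMIs were retained. Only 25 barcode sequences occurred in both libraries. Joint clustering gave 19 clusters. Of these, 3 were granulocyte-monocyte progenitor (GMP)-like, 3 immature neutrophil-like, 1 mature neutrophil-like, 2 monocyte-like and 1 basophil and mast-like by their markers. The other 9 clusters, with 50.5% of the cells, were left unnamed. One of these, cluster 18 with 151 cells, had 5 of 8 stromal fibroblast markers raised. Clusters 1 and 3, with 1472 and 1372 cells, were also unnamed. Each had 7 immature neutrophil markers raised, beside 7 mature neutrophil markers in cluster 1 and 8 in cluster 3. Cluster 11, the larger of the 2 monocyte-like clusters with 614 cells, had 3 GMP markers raised beside 4 monocyte markers. Its leading genes began with Hpgd, Fabp5, Spp1 and Ly6a, so monocyte-like values below come from a mixed class.

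Promoter windows of 8 of the 10 genes were matched in RefSeq (GRCm38.p6). Each covers the 250 bases before a transcription start, read 5′ to 3′ on the gene's strand. Capitals mark the core of the hypoxia response element, ACGTG or GCGTG on either strand (so also CACGT or CACGC), and neighbouring cores can overlap. The sequences below belong to 2 genes that were higher with DCA, Bnip3 and Ero1l, and to the 2 that were lower, Ankrd37 and Fam162a.
Bnip3: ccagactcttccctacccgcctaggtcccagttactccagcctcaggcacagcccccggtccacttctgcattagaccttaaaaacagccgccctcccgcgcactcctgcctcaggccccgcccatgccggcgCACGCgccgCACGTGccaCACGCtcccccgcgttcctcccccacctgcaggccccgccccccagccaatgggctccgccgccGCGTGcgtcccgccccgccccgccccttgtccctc
Ero1l: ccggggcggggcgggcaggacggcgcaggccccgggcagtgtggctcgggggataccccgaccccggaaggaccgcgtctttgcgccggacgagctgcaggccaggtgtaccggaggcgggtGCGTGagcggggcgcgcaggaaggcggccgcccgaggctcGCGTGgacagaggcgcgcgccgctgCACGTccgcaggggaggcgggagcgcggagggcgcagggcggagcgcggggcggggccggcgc
Ankrd37: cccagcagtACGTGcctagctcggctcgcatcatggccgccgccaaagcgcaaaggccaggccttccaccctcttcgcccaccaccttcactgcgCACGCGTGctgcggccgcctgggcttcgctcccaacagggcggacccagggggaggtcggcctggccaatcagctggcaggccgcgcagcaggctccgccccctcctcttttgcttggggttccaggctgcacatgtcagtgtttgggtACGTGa
Fam162a: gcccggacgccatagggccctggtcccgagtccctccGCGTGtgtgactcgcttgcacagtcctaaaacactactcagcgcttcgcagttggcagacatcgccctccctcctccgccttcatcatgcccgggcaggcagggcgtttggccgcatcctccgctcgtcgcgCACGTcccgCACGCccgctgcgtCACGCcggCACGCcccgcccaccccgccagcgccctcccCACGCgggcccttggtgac
Bnip3 (chr7:138909507-138909756, minus strand) held 5 cores, of which CACGT and ACGTG share 4 letters of 1 palindrome. Ero1l, listed by RefSeq as Ero1a (chr14:45318573-45318822, minus strand), held 3 cores. Ankrd37 (chr8:45999851-46000100, minus strand) held 4 cores, the nearest starting 6 bases before the transcription start. Fam162a (chr16:36071562-36071811, minus strand) held 6 cores, the highest number among the 8 genes. Selenbp1 held 3 cores, Egln3 held 1, and the first of the 2 windows of Pdk1 held 1. Vegfa held none in the window of its first listed start (chr17:46032378-46032627, minus strand) and 2 in the window of the second (chr17:46025164-46025413). The second window lies downstream of the first start, and it is included in the counts that follow. In all, 8 of 10 windows of these genes contained at least 1 core, against 38.6% of 32851 promoter windows, and 5 contained at least 3 cores, against 6.58%. A match is a string of letters in this window and was not tested as a binding site. Slc2a3 and Ndrg1 were the genes without a matched window.

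With DCA, 8 of the 10 genes were higher and 2 were lower. CPM stands for UMIs of the gene per 1000000 UMIs of the library. Genes counted as measured had at least 5 CPM in the higher library and 50 UMIs over both libraries together. Of these 8203 genes, 59.3% were higher with DCA. The median log2 ratio of the 10 genes was 0.29, against 0.05 over all measured genes, 95% of which lay between −0.54 and 0.44. Bnip3 alone reached a log2 ratio of 0.5, which 1.62% of measured genes did, and none of the 10 reached −0.5, which 2.91% did.

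**Figure D1:**
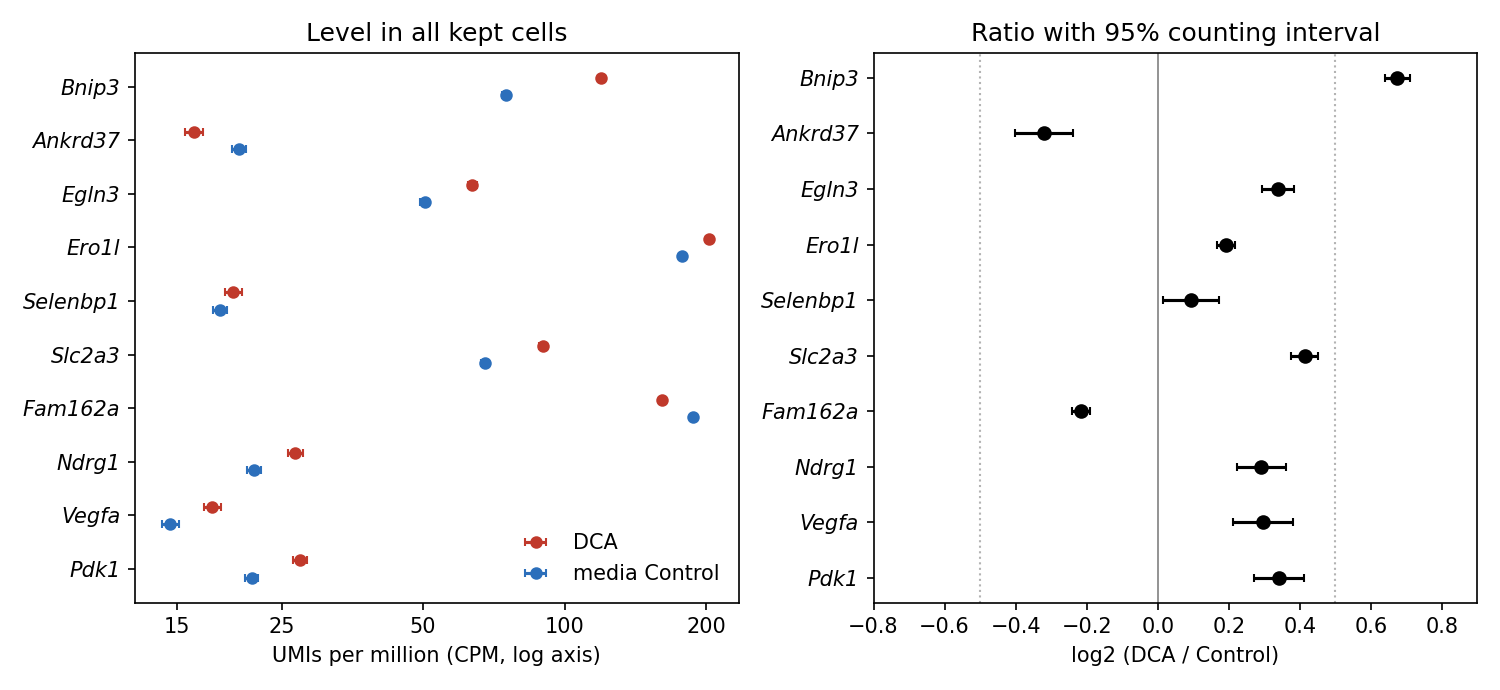
Left, level of each gene in all kept cells as CPM (log axis), DCA in red and media Control in blue, with exact 95% Poisson intervals. Right, log2 ratio of DCA over Control with its 95% counting interval, dotted lines at −0.5 and 0.5. Bnip3 lies past 0.5 at 0.67, and Ankrd37 and Fam162a lie below 0.

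Among the genes that act on mitochondria, Bnip3, a receptor on the outer mitochondrial membrane that directs mitochondria to autophagy, stood at 119.6 CPM in DCA cells and 74.9 CPM in Control cells. Its log2 ratio was 0.67 (95% counting interval 0.64 to 0.71), the 35th highest of the 8203 measured genes. Fam162a, a mitochondrial protein linked to cell death in low oxygen, went the other way, with 161 CPM in DCA cells and 187 CPM in Control cells (log2 ratio −0.22, −0.24 to −0.19). Pdk1, the kinase that switches off pyruvate dehydrogenase, stood at 27.3 CPM with DCA and 21.6 CPM in Control (log2 ratio 0.34, 0.27 to 0.41). Slc2a3, the glucose transporter GLUT3, stood at 89.95 CPM with DCA and 67.5 CPM in Control (log2 ratio 0.41, 0.38 to 0.45). The genes of glucose uptake and pyruvate control were thus both higher with DCA, and Bnip3 and Fam162a differed in opposite directions.

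Egln3, the oxygen-sensing prolyl hydroxylase PHD3 and a feedback regulator of HIF, stood at 63.6 CPM in DCA cells and 50.4 CPM in Control cells (log2 ratio 0.34, 0.29 to 0.38). Ero1l, the oxidase that drives disulfide bond formation in the endoplasmic reticulum, stood at 202 and 177 CPM in DCA and Control cells (log2 ratio 0.19, 0.17 to 0.22). Vegfa, the secreted vascular growth factor, stood at 17.8 CPM with DCA and 14.5 CPM in Control (log2 ratio 0.30, 0.21 to 0.38). All 3 were higher in the DCA library by more than counting error. Ndrg1, a cytoplasmic stress-response protein, stood at 26.8 CPM with DCA and 21.9 CPM in Control (log2 ratio 0.29). Selenbp1, a selenium-binding enzyme that oxidises methanethiol, showed the smallest difference, with 19.7 CPM with DCA and 18.5 CPM in Control (log2 ratio 0.09, 0.02 to 0.17). Ankrd37, a small ankyrin repeat protein, had the lowest ratio of the 10 genes, at 16.3 CPM with DCA and 20.3 CPM in Control (log2 ratio −0.32, −0.40 to −0.24).

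Transcript length moved with these ratios across all genes. By the longest GENCODE transcript, the median log2 ratio was −0.12 in the quintile of measured genes with the shortest transcripts and 0.14 in the quintile with the longest. Across genes, length and ratio had a Spearman correlation of 0.38 over 8154 genes, which share 2 libraries. Fam162a (718 bases) and Ankrd37 (927 bases), both lower with DCA, had the shortest transcripts of the 10 genes and belonged to the shortest quintile. Against the median of that quintile they remained lower, by −0.10 and −0.20. Bnip3 (1756 bases) belonged to the same quintile and was 0.79 above its median. The part of transcript length in the ratios of the 10 genes was not tested.

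To ask whether a few cells or all cells carried these RNAs, each cell was thinned to 5000 UMIs, which kept 7108 DCA and 7833 Control cells and left out 647 and 662 shallower ones. Ero1l and Fam162a were broadly detected. Ero1l had a UMI in 53.0% of DCA cells and 49.5% of Control cells, and Fam162a in 43.4% and 46.2%. Slc2a3 had a UMI in 30.4% of DCA and 27.1% of Control cells, Bnip3 in 28.7% and 21.5%, and Egln3 in 24.3% and 20.7%. The other 5 genes were detected in at most 12.97% of DCA cells and 11.1% of Control cells, down to 6.91% of DCA cells for Ankrd37 and 6.52% of Control cells for Vegfa. Before thinning, Bnip3 had a UMI in 46.3% of DCA and 42.7% of Control cells. As a yardstick for free RNA in the droplets, the basophil protease gene Prss34 had a UMI in 0.142% of DCA cells and 0.130% of Control cells outside the basophil and mast-like cluster (median 15292.5 and 20063.5 UMIs before thinning), against 45.5% and 48.9% inside it (10629.5 and 10570 UMIs). All 10 genes were detected well above that outside level in both libraries.

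The RNAs were less evenly spread over cells than their levels alone would give. If every cell held Bnip3 at the library's mean level, 48.9% of DCA cells and 33.2% of Control cells would have had a UMI. The observed share was 0.59 of that figure with DCA and 0.65 in Control. Over the 10 genes the median of this quotient was 0.80 in DCA and 0.82 in Control cells, against 0.97 over measured genes in each library. For Vegfa it was 0.97 in DCA and 0.95 in Control cells, close to the value over measured genes. The Fano factor, the variance over cells divided by the mean, had a median of 1.82 in DCA and 1.83 in Control cells over the 10 genes, against 1.06 over measured genes in each library. All 10 were above the gene median in both libraries. Bnip3 had the highest Fano factor of the 10 genes, 3.89 in DCA and 2.88 in Control cells. Vegfa, at 1.08 and 1.12, and Pdk1, at 1.21 and 1.17, had the lowest. The Fano factor depends on a gene's level and was not adjusted for it, so it does not rank the genes by evenness. The quotient depends on level too. The measured genes set beside the 10 were not matched for level, and the part of level in these gaps was not tested.

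The 5% of cells with the most UMIs of a gene held 81.4% of all Ankrd37 UMIs in DCA and 78.3% in Control cells. For Selenbp1 they held 71.3% and 73.2%, and for Bnip3 47.2% and 51.0%. For the broadly detected Ero1l they held 31.8% of UMIs in DCA and 31.2% in Control cells. For a gene seen in few cells this share is high from sampling alone, and Vegfa, close to even by its Fano factor, had 63.5% in DCA and 78.7% in Control cells, so it does not rank the genes by evenness.

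Summed over the 10 genes, a cell thinned to 5000 UMIs held a mean of 4.04 UMIs with DCA and 3.44 in Control, with a median of 2 in both. The upper ends differed more: the 95th percentile was 14 UMIs in DCA and 11 in Control cells, and the 99th was 29 and 24. At least 5 of the 10 genes were detected together in 11.2% of DCA and 8.30% of Control cells, and none of them in 10.9% and 12.8%.

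**Figure D2:**
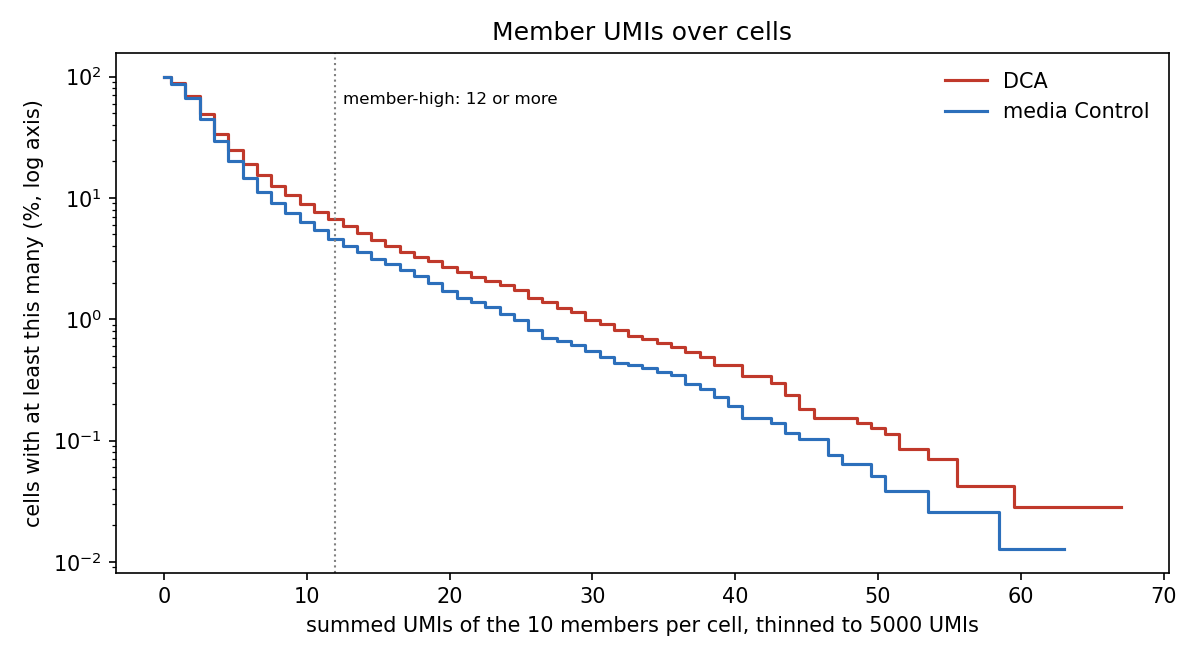
Share of cells (percent, log axis) with at least the number of summed UMIs of the 10 genes on the horizontal axis, after thinning each cell to 5000 UMIs, DCA in red and media Control in blue. The dotted line marks 12 UMIs, reached by 6.75% of DCA and 4.58% of Control cells, and the DCA line stays above the Control line to the right of it.

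Cells with at least 12 summed UMIs, the 95th percentile of both libraries together, are called member-high here. With ties at the cut they were 5.62% of the cells. They made up 480 of 7108 DCA cells (6.75%, exact binomial 95% interval 6.18 to 7.36%) and 359 of 7833 Control cells (4.58%, 4.13 to 5.07%), a ratio of 1.47 (1.28 to 1.69). Without Bnip3 in the sum the ratio was 1.30. The class is a range of a continuous score: 107 cells lay at the cut and 127 just 1 UMI below it. By doublet score, 1.96% of cells removed for a high doublet score were member-high, against 5.62% of the others. Member-high cells had a median of 12572 UMIs with DCA and 16188 in Control, against 15474.5 and 20179 in the other cells of the same libraries. Their median mitochondrial share was 1.78% in DCA and 1.70% in Control, against 1.90% and 1.82% in the other cells.

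Each gene was also set against the sum of the other 9, so that it played no part in choosing its own high cells. In cells high for the other 9, Ankrd37 stood at 173 CPM with DCA and 242 CPM in Control, 17.3 and 17.5 times its level in the remaining cells of the same library. Selenbp1 was 10.8 times as high in DCA and 12.8 times in Control, and Bnip3 10.1 and 11.9 times. Bnip3 had a UMI in 91.9% of such DCA cells and 86.8% of such Control cells. The lowest folds were those of Vegfa, 3.35 in DCA and 3.18 in Control cells. All 10 genes were thus higher where the other 9 were high, in each library.

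Over cells, all 45 pairs were positive in both libraries, with a median Pearson r of 0.247 in 7755 DCA cells and 0.247 in 8495 Control cells. These correlations used log-normalised UMIs of all kept cells of a library, which differ in depth and were not thinned here. No pairs of other genes were set beside them, so the counts of positive pairs do not set the 10 genes apart. Bnip3 had the highest mean correlation with the other 9, 0.40 in DCA and 0.38 in Control cells, and Vegfa the lowest, 0.13 and 0.12. The weakest pair was Slc2a3 with Fam162a, at 0.06 in DCA and 0.00 in Control cells. Outside the member-led clusters 44 of 45 pairs were positive, with a median r of 0.178 in DCA and 0.177 in Control cells. There Slc2a3 with Fam162a was at −0.08 in DCA and −0.11 in Control cells, and Slc2a3 and Vegfa had the lowest mean correlations, 0.090 and 0.092 in DCA and 0.078 and 0.082 in Control cells. The genes most like the mean of the 10, out of 8914 detected in at least 5% of cells, were mostly enzymes of glycolysis. Aldoa (aldolase) led with a mean r of 0.56 over the 2 libraries, followed by Pgk1 (phosphoglycerate kinase) at 0.53, Tpi1 at 0.50, Gapdh at 0.47, Ldha (lactate dehydrogenase) at 0.45 and Eno1 (enolase) at 0.45. Egln1, the prolyl hydroxylase PHD2, came next at 0.40, then Gpi1, Pkm and Pgm1 of sugar metabolism, the cytokine gene Mif, and P4ha1, a collagen prolyl hydroxylase subunit, at 0.39.

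The 10 genes had 7 of their number among the 20 leading genes of each of 2 clusters, called member-led clusters 7 and 17. These were defined by the genes themselves, so what follows describes them. Cluster 17, with 186 cells, held the highest level of each of the 10 genes among the 19 clusters. There Bnip3 stood at 893 CPM, against a median over clusters of 74.7, and Ankrd37 at 300 CPM, against a median of 12.6. Selenbp1 stood at 183 CPM (12.7 times its median), Slc2a3 at 551 CPM (9.14 times), Ero1l at 950 CPM (5.94 times) and Egln3 at 264 CPM (5.25 times). Fam162a, Pdk1, Vegfa and Ndrg1 stood between 2.53 and 4.43 times their medians. Cluster 7, with 1059 cells, was second for Bnip3, Ankrd37, Ero1l, Selenbp1 and Pdk1. The 2 clusters held 7.11% of all UMIs, but 35.1% of Ankrd37, 26.8% of Selenbp1 and 25.2% of Bnip3 UMIs, and 11.9% of Vegfa UMIs. Most RNA of each gene therefore lay outside them.

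**Figure D3:**
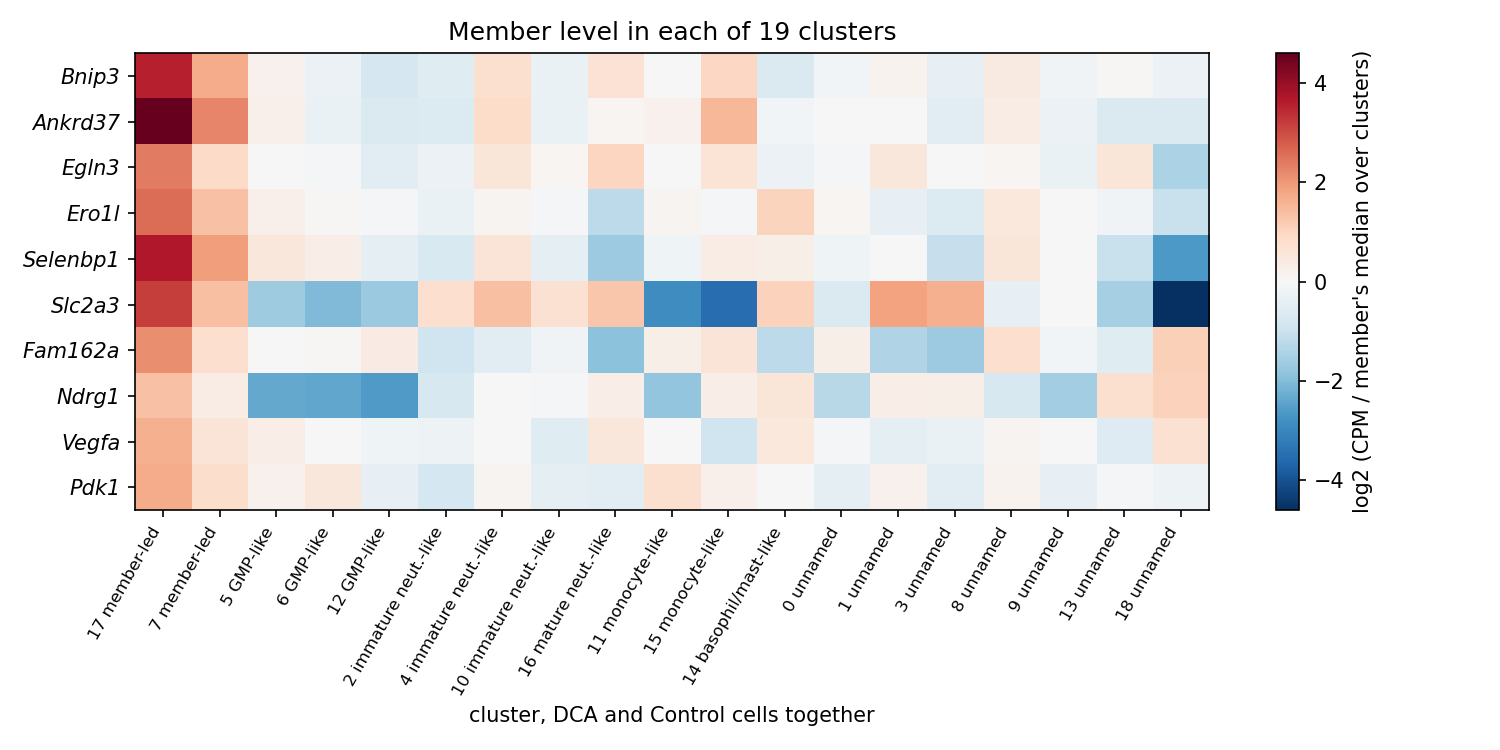
Level of each gene (rows) in each of the 19 joint clusters (columns) as log2 of its CPM over its own median across clusters, red above and blue below. Cluster 17 is the reddest column for every gene, cluster 7 is second for 5 of the 10, and Slc2a3 and Ndrg1 are blue in the GMP-like columns.

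No cluster name was given to these cells, which carried RNA of neutrophil precursors. In clusters 7 and 17 together, the 7 secondary granule genes summed to 32347 CPM, against 35370 CPM in the other clusters, and late neutrophil genes to 605 against 1474 CPM. Cell cycle genes summed to 3115 CPM in cluster 17, the highest of the 19 clusters, and to 1433 CPM in cluster 7, against 1810 CPM in the cells outside both. The cell cycle inhibitor gene Cdkn1a, one of the leading genes of cluster 17 and named after its values were seen, stood at 238 CPM in cluster 17 and 40.7 CPM in cluster 7, against 36.9 CPM outside. The metallothionein genes Mt1 and Mt2, also leading genes and named after their values were seen, were high, at 12142 and 1717 CPM in cluster 17, against 1823 and 142 CPM outside. Stromal fibroblast markers summed to 6.18 CPM in cluster 17 and 1.32 CPM in cluster 7, against 2.94 CPM outside and 412 CPM in cluster 18. Nearly all of the sum in clusters 7 and 17 was Col1a1, at 1.93 CPM inside and 1.54 CPM outside, and Col1a2 was at 0 inside. Their median mitochondrial share was 1.87%, against 1.84% outside. Over 8203 measured genes the median fold inside over outside was 1.03, and 32 genes, or 0.390%, reached 2-fold.

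Because cluster borders follow the genes that differ, the sizes of clusters 7 and 17 were not compared between the groups. In a clustering made without the 10 genes and the hypoxia and glycolysis lists, 2 clusters still had at least 3 of the 10 among their leading genes, and 94.0% of their cells belonged to clusters 7 or 17, of whose cells they recovered 65.5%. They held 5.42% of DCA cells (420 cells, exact binomial 95% interval 4.92 to 5.94%) and 5.26% of Control cells (447 cells, 4.80 to 5.76%). Within them, Bnip3 stood at 442 CPM with DCA and 211 CPM in Control, and Slc2a3 at 278 and 167 CPM. Ankrd37 and Fam162a, lower with DCA over all kept cells, were higher with DCA in these 2 clusters. Ankrd37 stood at 95.4 and 88.7 CPM there, and Fam162a at 335 and 299 CPM, in DCA and Control. The intervals of the 2 shares overlapped. The shares depended on the clustering: with the 10 genes included and a resolution of 2, member-led clusters held 4.04% of DCA and 2.59% of Control cells. Those intervals, 3.61 to 4.50% and 2.26 to 2.95%, did not overlap.

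The DCA difference was not confined to the member-led clusters. Inside clusters 7 and 17, Bnip3 stood at 449 CPM with DCA and 248 CPM in Control (log2 ratio 0.86, 0.79 to 0.93). Cluster 17, with the higher level, held 103 of these 602 DCA cells and 83 of the 643 Control cells, and within each cluster the log2 ratio was lower, 0.76 in cluster 7 and 0.67 in cluster 17. Outside them it stood at 94.6 and 61.6 CPM (log2 ratio 0.62, 0.58 to 0.66). Inside, 3 of the 10 genes reached a log2 ratio of 0.5 (Bnip3, Egln3 and Slc2a3), against 4.63% of genes measured there, and 8 were above 0, against 55.3%. Egln3 and Slc2a3 were at 0.51 and 0.65 in cluster 7 but each at 0.20 in cluster 17, where the interval of Egln3, −0.01 to 0.42, includes 0. Outside, 1 reached 0.5, against 1.55% of genes, and 8 were above 0, against 59.2%. The median log2 ratio of the 10 genes was 0.40 inside and 0.28 outside, against 0.04 and 0.05 over measured genes. Ankrd37 was lower with DCA in both, with log2 ratios of −0.16 inside and −0.40 outside. Within clusters it was at −0.13 (−0.32 to 0.05) in cluster 7 and −0.58 (−0.79 to −0.38) in cluster 17. Fam162a was lower outside (−0.25), and inside its pooled log2 ratio was −0.02 with an interval of −0.09 to 0.05. Within each cluster it was lower with DCA, at −0.10 (−0.18 to −0.02) in cluster 7 and −0.13 (−0.26 to −0.004) in cluster 17. For Ankrd37 and Fam162a the direction inside depended on the clustering. Both were higher with DCA in the member-led clusters made without the 10 genes and the hypoxia and glycolysis lists.

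**Figure D4:**
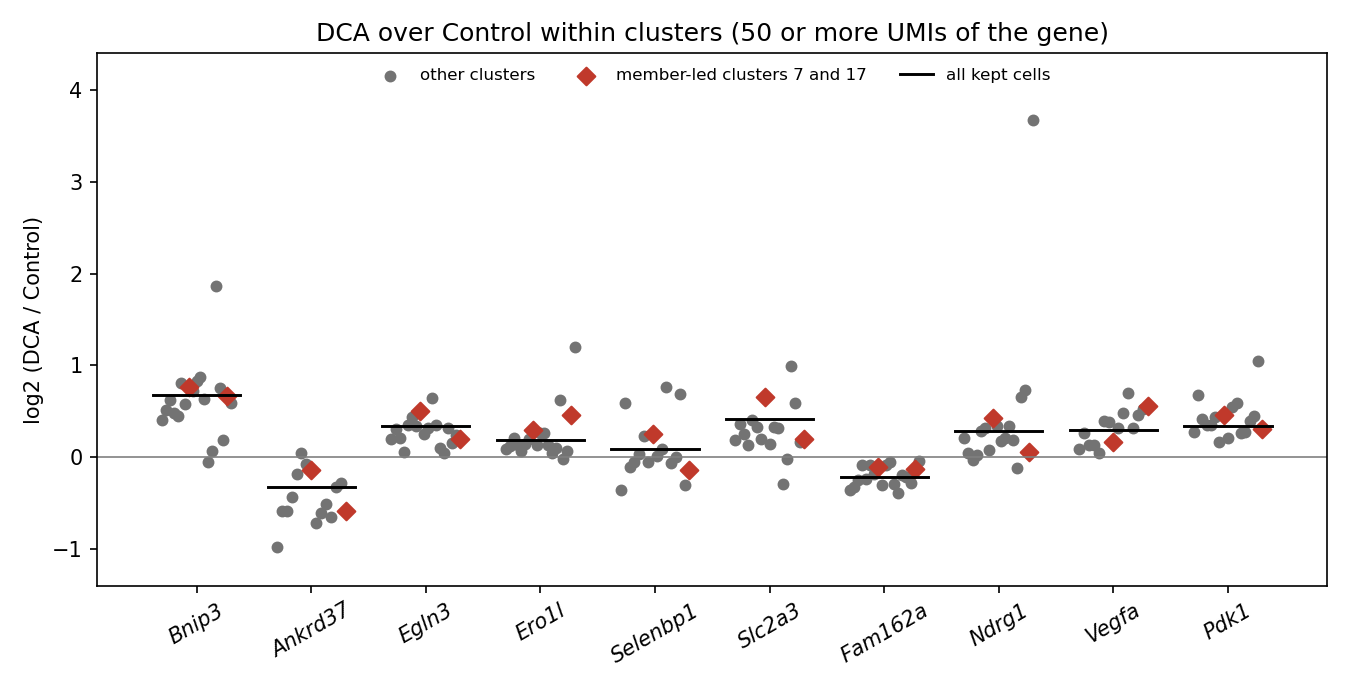
Log2 ratio of DCA over Control for each gene within each cluster where the gene had at least 50 UMIs, with member-led clusters 7 and 17 as red diamonds and the value over all kept cells as a black line. Bnip3 is above 0 in 18 of 19 clusters and Fam162a in 0 of 18; the highest point is Ndrg1 in cluster 18 at 3.67.

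Counted over clusters with at least 50 UMIs of a gene, the directions were nearly uniform. Bnip3 was higher with DCA in 18 of 19 clusters, Ero1l in 18 of 19, Egln3 in 18 of 18, Pdk1 in 17 of 17, Vegfa in 15 of 15, Ndrg1 in 16 of 18 and Slc2a3 in 15 of 17. Fam162a was higher with DCA in 0 of 18 and Ankrd37 in 1 of 15. Selenbp1 was split, above 0 in 8 of 16. Over all 19 clusters, without the minimum of 50 UMIs, the counting interval lay above 0 in 15 for Bnip3 and 12 for Ero1l. It did so in 11 for Egln3, 10 for Pdk1, 9 for Vegfa and 6 for Ndrg1. The clusters come from the same 2 libraries and are not replicates, so a difference between the libraries can recur in each. How many other genes kept 1 direction over the clusters was not counted.

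Bnip3 differed most in the basophil and mast-like cluster 14, with 92.6 CPM in 125 DCA cells and 25.4 CPM in 192 Control cells (87 and 49 UMIs, log2 ratio 1.87, 1.35 to 2.40). Beside 7 basophil and mast markers, that cluster had 6 stem and progenitor, 4 monocyte, 4 eosinophil and 3 erythroid markers raised. Whether its mix of cells differed between the groups was not tested. In GMP-like cells Bnip3 stood at 88.5 CPM with DCA and 56.8 CPM in Control, in immature neutrophil-like cells at 95.6 and 65.4 CPM, and in monocyte-like cells at 119.0 and 69.5 CPM. In mature neutrophil-like cells it stood at 128 and 113 CPM, and the interval of that log2 ratio, −0.40 to 0.76, includes 0. Ndrg1 showed its widest gap in cluster 18, the cluster with raised stromal markers, with 59 UMIs in 64 DCA cells and 11 UMIs in 87 Control cells. In monocyte-like cells as a class Ndrg1 stood at 24.3 CPM with DCA and 13.7 CPM in Control (log2 ratio 0.82), but the class joins cluster 15, with more Ndrg1 and 140 of the DCA against 93 of the Control cells, and cluster 11. Within cluster 11 the log2 ratio was 0.34 (−0.09 to 0.77) and within cluster 15 it was 0.74.

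To follow granule gene stage, 15782 cells were placed in 10 bins by their secondary over primary granule RNA (low in bin 1, high in bin 10). The 847 monocyte-like cells are among them. Primary granule RNA fell over these bins from 21983 to 88.5 CPM while secondary granule RNA rose from 1370 to 83867 CPM. Slc2a3 followed this axis most closely, from 13.5 CPM in the first bin to 195 CPM in the last, 14.4 times as high. Ndrg1 followed with 8.17 CPM in the first and 40.9 CPM in the last bin (5.00 times). Fam162a and Pdk1 ended lower, Fam162a after a peak in bin 3, at 0.38 and 0.52 of their first-bin level in the last bin (187 and 71.2 CPM for Fam162a, 35.0 and 18.1 CPM for Pdk1). Selenbp1, Vegfa and Ero1l ended at 0.67, 0.70 and 0.77 of their first-bin level. Bnip3 and Egln3 ended near where they began, at 1.10 and 1.08 times, and Ankrd37 was highest in bin 6, at 23.7 CPM. Outside the member-led clusters bin 6 was instead its lowest bin, at 11.1 CPM. Cells of the member-led clusters were most frequent in the middle of the axis, with 18.3% of cells in bin 4 against 1.46% in bin 1 and 0.634% in bin 10.

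**Figure D5:**
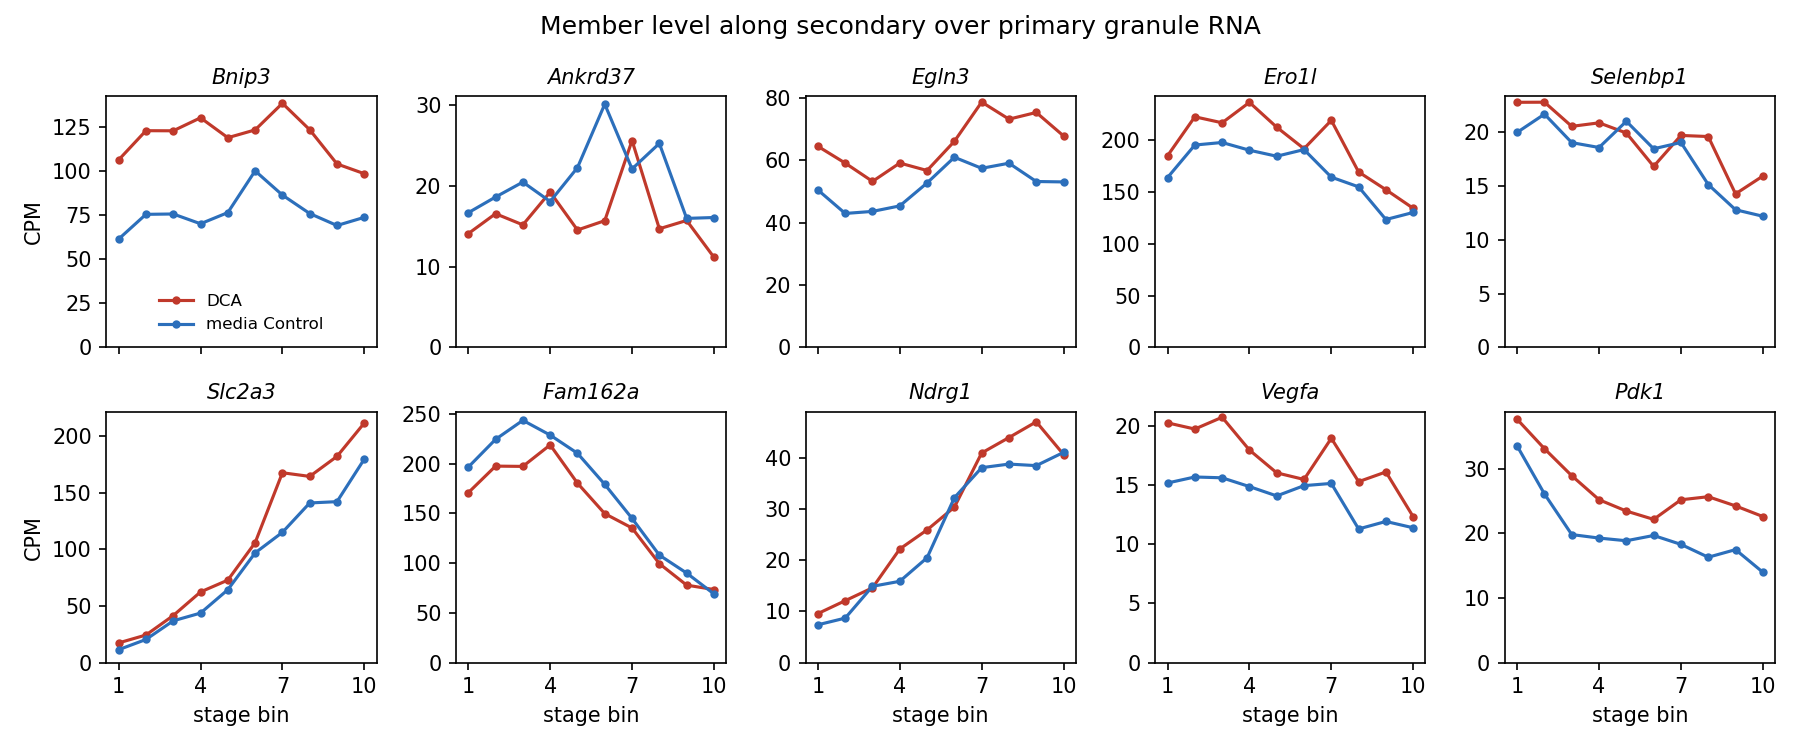
CPM of each gene in 10 bins of cells ordered by secondary over primary granule RNA (bin 1 lowest), DCA in red and media Control in blue, each panel with its own axis from 0. Slc2a3 and Ndrg1 climb along the bins in both libraries, Fam162a and Pdk1 end lower than they began, Fam162a after a peak at bin 3 or 4, and the DCA line of Bnip3 lies above the Control line in 10 of 10 bins.

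Clusters named as GMP-like and immature neutrophil-like were also compared. Slc2a3 was 6.84 times as high in immature neutrophil-like as in GMP-like cells, and Ndrg1 4.33 times. Ero1l, Selenbp1, Fam162a, Vegfa and Pdk1 were lower there, at 0.62 to 0.86 of their GMP-like level. These 7 directions were the same in 4 clusterings, whereas Bnip3, Ankrd37 and Egln3 changed direction between them. Within bins, Bnip3, Egln3, Ero1l, Slc2a3, Vegfa and Pdk1 were higher with DCA in 10 of 10, Selenbp1 in 8, Ndrg1 in 7, Ankrd37 in 2 and Fam162a in 1. For Bnip3 the log2 ratio ranged from 0.30 in bin 6 to 0.89 in bin 4. With the member-led clusters left out, Bnip3 was still higher with DCA in 10 of 10 bins and Ankrd37 in 0 of 10, while Slc2a3 was higher in 8 bins and Selenbp1 in 6.

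Other genes of the pathway were read from lists that the same earlier results had preceded. Of all measured genes, 59.3% had a log2 ratio above 0, 1.62% reached 0.5 and 2.91% reached −0.5. Of 19 measured genes of glycolysis and lactate export, 15 were above 0 with a median log2 ratio of 0.20, and Hk2, the hexokinase that traps glucose in the cell, was the 1 gene past 0.5, at 128 CPM with DCA and 75.6 CPM in Control (log2 ratio 0.77). Gapdh was slightly lower with DCA (2437 and 2570 CPM in DCA and Control), and Aldoa higher (1007 and 895 CPM). All 19 were above 1 in the ratio of member-led over other clusters, with a median of 1.47, against 59.0% of all measured genes above 1. Of 24 further hypoxia-induced genes, 16 were above 0, against 59.3% of all measured genes, with a median of 0.10 against 0.05. None reached 0.5, and Sap30, a subunit of a histone deacetylase complex, reached −0.60. In that list 22 of 24 were above 1 in member-led over other clusters, and 5 reached 2-fold, against 0.390% of all measured genes. These 5 were Hilpda, Kdm3a, P4ha1, Stc2 and Zfp395, named after their values were seen.

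Components of the HIF machinery itself had a median ratio of member-led over other clusters of 1.07 over 13 measured genes, against 1.03 over all measured genes. Hif1a, the gene of HIF-1α and also named after its values were seen, stood at 58.6 CPM in clusters 7 and 17 and at 59.8 CPM outside. Between the libraries Hif1a stood at 70.5 CPM with DCA and 52.2 CPM in Control (log2 ratio 0.43, 0.39 to 0.48). In this list 8 of 13 were above 0, against 59.3% of all measured genes, a share that also applies to the lists below. Eloc, the elongin C subunit of the VHL ligase, stood at 67.1 CPM with DCA and 154 CPM in Control (log2 ratio −1.19). Pyruvate dehydrogenase and its regulators had 6 of 8 above 0 with a median of 0.03, and Mpc1, a subunit of the mitochondrial pyruvate carrier, was at −0.66. Mitophagy and autophagy genes had 8 of 13 above 0 with a median of 0.02, and Phb2, a prohibitin of the inner mitochondrial membrane, was at −0.58. The oxidative folding and unfolded protein response list had 12 of 16 above 0 with a median of 0.11, and Sdf2l1 (−0.62) and Prdx4 (−0.55) were past −0.5. Of the VEGF family and its receptors 3 genes were measured, with log2 ratios between −0.02 and 0.21.

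Genes were also set beside their closest relatives. Bnip3l, the second mitophagy receptor of the BNIP3 family, stood at 212 CPM with DCA and 199 CPM in Control (log2 ratio 0.09), where Bnip3 had 0.67. Egln1 and Egln2, the other prolyl hydroxylases, had log2 ratios of −0.01 and 0.08, where Egln3 had 0.34. Slc2a1, the glucose transporter GLUT1, had 0.30, Pdk3 0.20, Ero1lb 0.29, Ndrg3 0.26, Ndrg2 0.05 and Vegfb −0.02. Selenbp2, a near-identical copy of Selenbp1, had 4 UMIs with DCA and 6 in Control, and reads shared by the 2 copies could not be assigned here. Pdk4 had 0 UMIs with DCA, where a count of 3 would be 0.0255 CPM, and 2 in Control, and Pdk2 had 56 and 62. Egln1 was 1.88 times and Slc2a1 2.07 times as high in the member-led clusters as outside, and Vegfb 1.00 times.

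The libraries also differed in other lists. Of 12 immediate early and heat shock genes, 4 were past 0.5 with DCA, against 1.62% of all measured genes. Among them were Jun (509 and 349 CPM in DCA and Control) and Fosb (48.2 and 24.8 CPM). In the member-led clusters 1 of those 12 was above its level outside, against 59.0% of all measured genes. Between the libraries, 59.3% of all measured genes were above 0 and 2.91% reached −0.5. Primary granule genes had 5 of 6 below 0 with DCA, and secondary granule genes 6 of 7 above 0. Cell cycle genes had 10 of 14 above 0 with a median of 0.11. In that list Mki67 was at 0.35 and Top2a at 0.30, and Cdk1 (−0.65) and Pcna (−0.58) were past −0.5. The part of these differences in the ratios of the 10 genes was not tested.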

How the data were processed

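The deposited values are whole-number UMI counts per gene and cell with no normalization, per the file's own values. The labels' protocols describe 10x Genomics 3′ libraries, reagent version 3.1, with 8000 cells targeted for each sample. The submitters' processing notes name Cell Ranger 6.0, while the genome build was not given in the sources used here, nor was the annotation. Lithocholic acid cultures that the design names were not analysed here. The 10 genes and every list were chosen with earlier results of these data known.

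Cells with at least 300 genes and at most 10% mitochondrial UMIs were kept. Scrublet's automatic threshold marked 0.0481% of DCA and 0.0441% of Control cells, so cells with the top 6% of scores were removed, 6.80% of DCA and 6.27% of Control cells with ties. Clusters of both libraries came from 2000 variable genes, 30 principal components, 15 neighbours and Leiden at resolution 1 (scanpy 1.11.5, leidenalg 0.10.2, igraph 0.11.9, scikit-learn 1.9.0, scipy 1.17.1), with no integration. A cluster was named where at least 3 markers of a class had at least 20 CPM and were raised. More than 1 marker of that class also had to be among the 10 leading genes. A cluster where another class had as many markers among them was left unnamed. A cluster was called member-led with at least 3 of the 10 genes among its 20 leading genes.

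Counts of a library's cells were added up per gene and scaled by the library total to CPM. CPM from 3′ reads is not adjusted for length, so levels of different genes were not compared. Ratios carry exact binomial intervals and sums exact Poisson intervals, at 95%. With 1 library per group there was no test and no p-value, and a log2 ratio of 0.5 served as the size reported as past the fold. In bulk sums, more cells with a gene and more RNA per cell cannot be told apart, so detection, spread and summed member UMIs were read from cells thinned to 5000 UMIs. The named genes were the 10 genes, the 12 genes most correlated with their mean, the 4 highest genes of each list with those past the fold, and family relatives. Stage bins used log2 of secondary over primary granule CPM with 100 CPM added to each, leaving out the basophil and mast-like cluster and cluster 18 (468 cells). The computations were tested on simulated data. Transcript lengths came from GENCODE vM21, matched by symbol for 99.4% of measured genes.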

Additional observations from a re-analysis of the deposited data

Results flagged for a closer look

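Selenbp1 differed in direction between clusters, which was not tested with replicates. In the immature neutrophil-like cluster 10 it stood at 14.5 CPM with DCA and 8.52 CPM in Control (70 and 64 UMIs), a log2 ratio of 0.77 with a counting interval of 0.26 to 1.28. In the unnamed cluster 0 it stood at 10.8 CPM with DCA and 13.8 CPM in Control (168 and 286 UMIs), a log2 ratio of −0.35 with an interval of −0.64 to −0.07. Both intervals leave out 0 on opposite sides, and Selenbp1 was the 1 gene of the 10 for which this occurred among the 19 clusters.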

How the results depend on the processing

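The log2 ratio of each of the 10 genes kept its sign under 7 alternatives (all barcodes, no doublet removal, a mean over cells, scaling to the median of all measured genes, a mean of ratios within clusters, leaving out member-led clusters, and thinning). Bnip3 ranged from 0.62 to 0.74, Ankrd37 from −0.45 to −0.18 and Fam162a from −0.27 to −0.17. The count of genes past the fold was 1 and the count above 0 was 8 under each of the 7. The ratio of member-high shares, 1.47, was 1.27 at 10000 UMIs and 1.74 without Ankrd37 and Fam162a in the sum, an alternative chosen after seeing the data, as were the stage bins and the count above 0. The median share of a gene's UMIs held by the top 5% of cells, 48.5% in DCA and 53.5% in Control, was 42.0% and 43.8% at 10000 UMIs and 37.9% and 38.4% without thinning. Of the 10 genes, 5 were higher in immature neutrophil-like than in GMP-like cells, against 2 at Leiden resolution 2, 2 at resolution 0.5 and 3 in clusters made without the hypoxia and glycolysis genes. At resolution 0.5 the member-led cluster held 8.33% of DCA and 9.39% of Control cells. The cause of these shifts was not tested. No paired analysis was possible because cell names carry no replicate letter, and for the same reason no replicate could be left out. The depth of 1 library per group limits every comparison of DCA with Control to these 2 libraries.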
